A study of Homo sapiens with 12 samples.

Results

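The genes described here encode the proteins with which a human cell detects double-stranded RNA (dsRNA), the adaptors that pass the signal on, and the related sensor and adaptor of cytosolic DNA. They are *DDX58* (which encodes RIG-I), *IFIH1* (MDA5), *DHX58* (LGP2), *TLR3*, *MAVS*, *TRIM25*, *STING1*, *CGAS*, *EIF2AK2* (PKR), and *ADAR*, and were taken by symbol, which gave 10 of the 60708 genes in the count matrices. Of these, 9 had enough counts to be tested, and *CGAS* had none in any library. The cells were HCT116, a human colorectal carcinoma line with a WT genotype, and all 12 libraries came from this 1 line after 24 h of treatment. The groups were OA (oligomycin A, an inhibitor of the mitochondrial ATP synthase), TN (tunicamycin, which blocks N-glycosylation and leads to unfolded proteins in the ER), and for each its own DMSO group, OActrl and TNctrl, with 3 biological replicates per group. The labels give a dose of 5 µg/mL for both stressors, while the paper states a higher dose for OA. Both stressors were chosen by the study to ask whether stress in mitochondria or in the ER brings about mitochondrial RNA and an interferon (IFN) response. The present comparison asks what happened to the transcripts of the sensing machinery itself.

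RIG-I and MDA5 are helicases that bind dsRNA in the cytosol and then engage MAVS on the mitochondrial outer membrane, which leads through TBK1 and IRF3 to the transcription of IFN genes. LGP2 is another helicase of this family that lacks the signaling domains and tunes the others, and TRIM25 is a ubiquitin ligase known as an activator of RIG-I. TLR3 senses dsRNA in endosomes, PKR phosphorylates eIF2α and slows translation when it binds dsRNA, and ADAR edits adenosines in dsRNA and thereby keeps cellular dsRNA from being sensed. cGAS and STING are the corresponding pair for cytosolic DNA. Many of these genes are themselves targets of IFN through ISGF3, a transcription factor complex that binds the IFN-stimulated response element, so that a cell that has seen IFN carries more of the receptors.

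Stretches of promoter are shown first for 5 members that hold this element or a form of it with a shorter spacer. *MAVS*, which holds neither, is shown beside them. Promoter windows of RefSeq (GRCh38.p14, from 250 bases before to 50 after a start site) were found for 7 of the 10 genes, that is, for all but *DHX58*, *STING1*, and *CGAS*. They were searched on both strands for GAAA followed after any 2 bases by a further GAAA, the core of the response element, and for the same pair with a spacer of any 1 base, a form that was added after the sequences had been seen. The motifs do not overlap each other in the stretches shown, except for a pair of 2-base spacer matches on the opposite strand of *IFIH1*, which share bases. Capitals mark the matches, and TTTC in capitals is the element read on the opposite strand.
*IFIH1* (chr2:162318685-162318873, minus strand): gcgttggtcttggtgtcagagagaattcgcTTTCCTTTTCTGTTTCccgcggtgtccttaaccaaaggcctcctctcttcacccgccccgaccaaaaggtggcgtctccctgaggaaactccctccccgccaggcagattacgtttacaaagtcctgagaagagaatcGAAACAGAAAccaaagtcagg
*EIF2AK2* (chr2:37156977-37157056, minus strand): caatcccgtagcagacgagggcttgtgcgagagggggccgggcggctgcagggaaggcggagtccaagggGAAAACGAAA
*TLR3* (chr4:186069082-186069161, plus strand): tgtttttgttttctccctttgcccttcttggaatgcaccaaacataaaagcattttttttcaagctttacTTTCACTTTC
*DDX58* (chr9:32526371-32526446, minus strand): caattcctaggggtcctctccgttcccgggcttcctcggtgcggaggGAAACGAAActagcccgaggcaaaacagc
*TRIM25* (chr17:56914044-56914123, minus strand): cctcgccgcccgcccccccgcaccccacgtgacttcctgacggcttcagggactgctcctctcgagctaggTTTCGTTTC
*MAVS* (chr20:3846754-3846833, plus strand): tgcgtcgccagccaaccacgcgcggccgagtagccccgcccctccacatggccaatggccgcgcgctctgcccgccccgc

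*IFIH1* held 3 matches with the 2-base spacer, *EIF2AK2* and *TLR3* held 1 each, and *DDX58* and *TRIM25* held 1 match with the 1-base spacer each. The 3 *ADAR* windows and the *MAVS* window held neither in all 300 bases. For comparison, the form with 2 bases was found in 3.57% and that with 1 base in 3.12% of the 35116 promoter windows of the table, and either of them in 6.40%. Counted per gene, either form was found in 7.83% of 27305 genes. A match is a description of the sequence and was not tested as a binding site. The matches did not follow the split by library number given below in every member. In the TN series *ADAR*, without a match, lay above in the libraries numbered 2 and 3 (0.49 in log2 CPM). *TRIM25*, with a match, overlapped (0.30), and *DHX58*, which was higher there, had no window. A relation between matches and levels was not tested.

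The genes are spread over 8 chromosomes of hg38. *DDX58* lies at chr9:32455302-32526208, *IFIH1* at chr2:162267074-162318684, *DHX58* at chr17:42101404-42112714, *EIF2AK2* at chr2:37099210-37157522, *ADAR* at chr1:154581695-154628013, *TRIM25* at chr17:56836387-56914080, *STING1* at chr5:139475533-139482935, and *CGAS* at chr6:73413515-73452297, all on the minus strand. *TLR3* (chr4:186068911-186088073) and *MAVS* (chr20:3846799-3876123) lie on the plus strand. The counts are per gene, over all exons, so no exon or UTR is told apart. *DDX58* needs care, because 96.6% of the bases of its MANE transcript (the reference transcript of a gene) are also exons of an overlapping read-through gene on the same strand, and reads there may not be given to either gene. Its counts may therefore be too low, although the overlap is the same in every library. In *TRIM25* and *EIF2AK2*, 9.36% and 2.03% of the transcript lie under genes of the opposite strand, and the strand setting of the counts was not given in the sources used here.

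The libraries held 9884124 to 24983573 counts. Of 10 colon epithelial markers, 8 or 9 were at 1 CPM (counts scaled to library size) or more in every library, with summed levels of 4206 to 9030 CPM. None of 10 leukocyte markers reached 1 CPM in any library, and they summed to at most 1.37 CPM. Of 10 fibroblast and endothelial markers, 1 to 3 reached 1 CPM, with sums of 2.05 to 13.7 CPM. The transcript *RN7SL1* alone took 6.02% to 17.9% of a library, with the highest share in OA replicate 2. The libraries numbered 1 differed from those numbered 2 and 3 in the TN series, in TNctrl and TN alike, and this is given below for each gene. As the samples are bulk RNA, fewer expressing cells and less RNA per cell cannot be told apart.

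The levels were compared between genes only per kilobase of MANE transcript, in CPM per kb, and without *DDX58* because of its overlap. *ADAR* was highest, with 34.6 to 75.5 CPM per kb (median 47.5), and lay above *TRIM25* (15.4 to 59.9, median 27.9) in 12 of 12 libraries. The adaptor *MAVS* was the steadiest of the rest at 5.41 to 9.14 CPM per kb. Behind *ADAR*, the order depended on the library, since *TRIM25* was above *IFIH1* in 10 of 12 libraries, *IFIH1* above *MAVS* in 4 of 12 libraries, *MAVS* above *EIF2AK2* in 8, and *EIF2AK2* above *STING1* in 6, so these neighbors could not be placed in 1 order. *IFIH1* ranged from 0.418 to 32.5 CPM per kb and *EIF2AK2* reached 19.8. *STING1* (2.01 to 14.1) lay above *DHX58* in 11 of 12 libraries, and *DHX58* (0.0800 to 5.85) above *TLR3* (0 to 3.21) in 9. *CGAS* had 0 of 176382683 counts over all libraries, which allows a level of up to 0.0170 CPM (3 counts of the total, for counting error only).

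**Figure D1:**
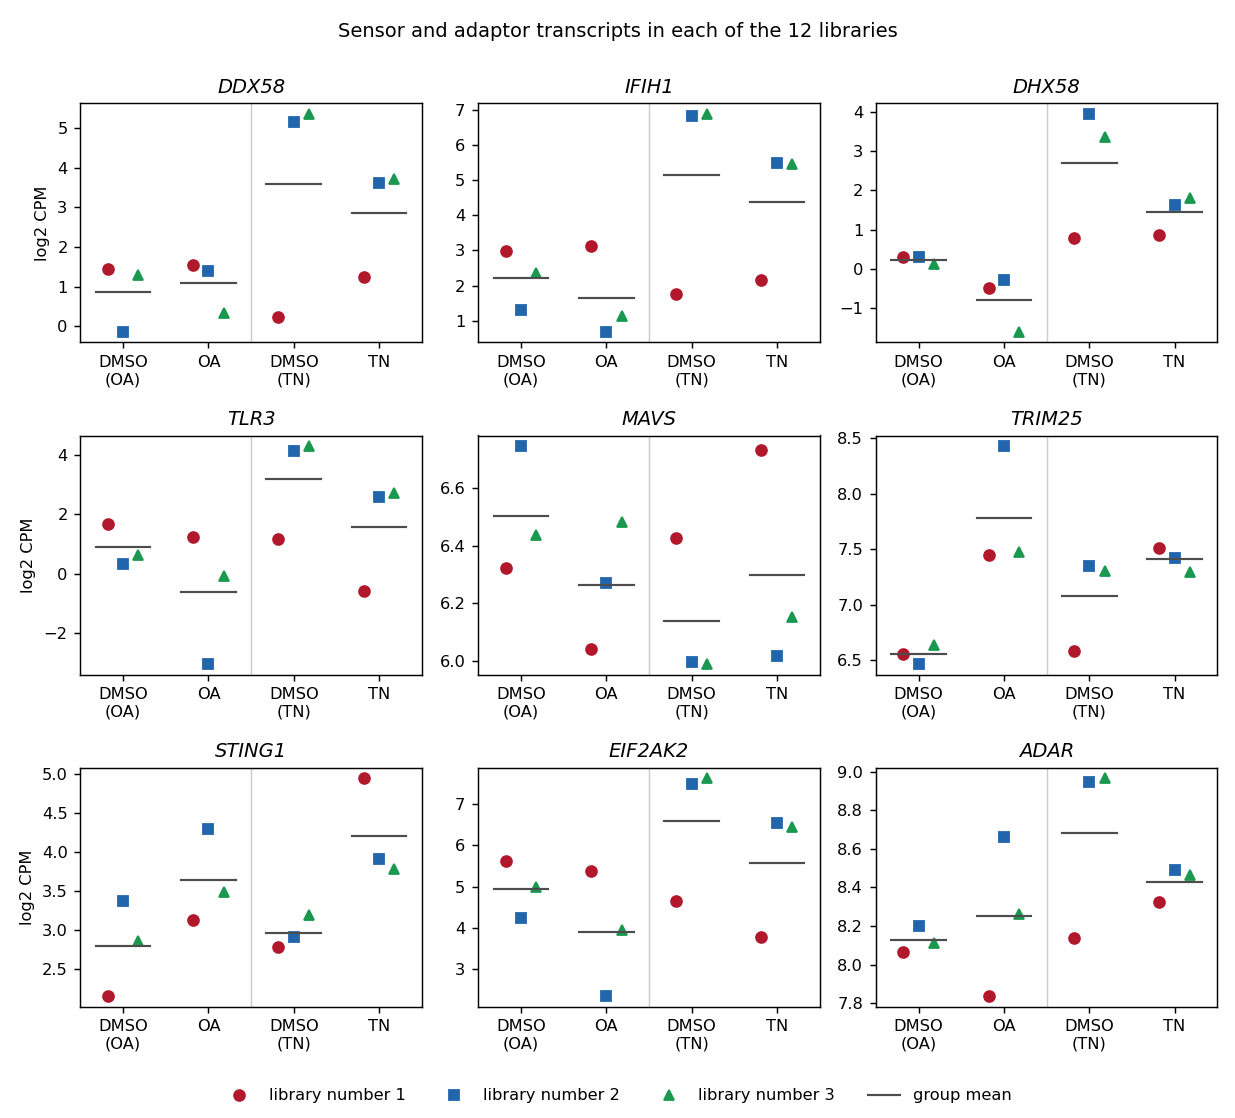
Level of the 9 detected transcripts in each library (y axis, log2 CPM with a prior count of 2; axes differ between panels) for the DMSO and treated groups of each stressor (x axis). Points are libraries, colored by their replicate number, and bars are group means of 3; in the TN series *DDX58*, *IFIH1*, *TLR3*, and *EIF2AK2* of the libraries numbered 2 and 3 sit far above those numbered 1, in TNctrl and in TN.

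After OA, *TRIM25* was the member that stood furthest from its DMSO libraries. Its level was 93.9, 88.3, and 99.3 CPM in OActrl replicates 1, 2, and 3 and 174, 344, and 177 CPM in the OA replicates, so that every OA library lay above every DMSO library, with OA replicate 2 higher than the others. The log2 fold change was 1.30 ± 0.31 (SE, n = 3 per group), with an adjusted p of 0.056 over all genes, just short of the 0.05 threshold. The call turned on settings, as the adjusted p ranged from 0.0037 to 0.103 over 11 alternatives, 8 of which called it, and without single libraries it ranged from 0.034 to 0.229. Of these 6 fits, those without OA replicate 1 (0.037) or OA replicate 2 (0.034) called it and the other 4 did not. Non-overlap of this kind was frequent, since 16.3% of the 14681 genes tested had all OA libraries above all DMSO libraries and 15.5% had them below.

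No member passed the test after OA, with 0 of 9 called against 4.48% of all genes tested by edgeR, and 1 (*TRIM25*) had an unadjusted p under 0.05. DESeq2 called 1 of 9, *TRIM25*, against 13.1% of all genes. *STING1* measured 4.35, 10.2, and 7.12 CPM in OActrl and 8.63, 19.6, and 11.1 CPM in OA, a log2 fold change of 0.85 ± 0.43 (adjusted p = 0.28), with overlapping groups although each OA library was above the DMSO library of its number. Its change was 0.42 without OA replicate 2 and 1.22 without OActrl replicate 2. *DHX58* was low throughout, with 1.10, 1.11, and 0.966 CPM in OActrl and 0.590, 0.698, and 0.207 CPM in OA. Its OA libraries all lay below, at 2 to 8 counts each, and its log2 fold change was -1.06 ± 0.58 (adjusted p = 0.31).

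The kinase gene *EIF2AK2* spread widely within both groups. It measured 49.0, 18.9, and 31.8 CPM in OActrl and 41.4, 4.99, and 15.2 CPM in OA, with a log2 fold change of -0.69 ± 0.68 (adjusted p = 0.57). *IFIH1* showed the same order of libraries, with 7.87, 2.33, and 4.98 CPM in OActrl and 8.55, 1.50, and 2.07 CPM in OA (log2 fold change -0.30 ± 0.70, adjusted p = 0.83). In both genes replicate 1 was highest and replicate 2 lowest, under DMSO and under OA. *TLR3* followed with 3.09, 1.15, and 1.42 CPM in OActrl and 2.21, 0, and 0.830 CPM in OA (log2 fold change -0.84 ± 0.94, adjusted p = 0.62), where OA replicate 2 had no count. These values moved with single libraries. Without OA replicate 1 the change was -1.73 for *EIF2AK2*, -1.51 for *IFIH1*, and -2.19 for *TLR3*, whereas it was -0.19, 0.14, and -0.24 without OA replicate 2 and -0.22, 0.24, and -0.23 without OActrl replicate 1.

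The remaining members had the log2 fold changes nearest to 0 after OA. *DDX58* measured 2.62, 0.790, and 2.34 CPM in OActrl and 2.80, 2.49, and 1.14 CPM in OA, a log2 fold change of 0.18 ± 0.57 (adjusted p = 0.87). *MAVS* measured 80.0, 107, and 86.5 CPM in OActrl and 65.8, 77.0, and 89.4 CPM in OA (-0.24 ± 0.24, adjusted p = 0.58). *ADAR* measured 267, 294, and 277 CPM in OActrl and 229, 405, and 307 CPM in OA (0.17 ± 0.26, adjusted p = 0.73). The sign of *DDX58* and *ADAR* turned when scaled to total counts and that of *IFIH1* and *MAVS* when scaled to *ACTB*, which moved the median of all genes to -0.23 and 0.42, respectively.

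**Figure D2:**
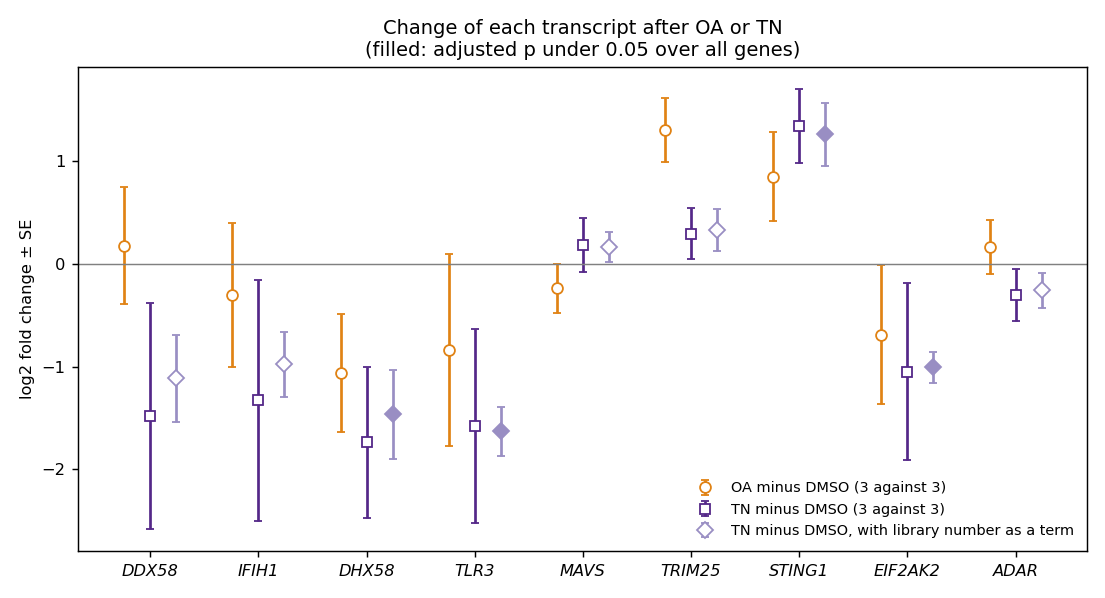
Log2 fold change ± SE of each transcript (y axis) for OA and TN against their DMSO groups, 3 libraries each, and for TN with the library number as a term. Filled points have an adjusted p under 0.05 over all genes: none without the number term, and *DHX58*, *TLR3*, *EIF2AK2* (lower) and *STING1* (higher) with it.

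After TN, the values of the receptors were lower and that of *STING1* higher than under DMSO, but again none of the 9 passed the test without the library number, against 6.99% of 14432 genes, and 2 (*STING1* and *DHX58*) had an unadjusted p under 0.05. DESeq2 called 1, *STING1*, against 15.0% of all genes. The replicate numbers were taken from the labels to pair the libraries of this series, so a fit with the number as a term is given beside the fit without it. The values set number 1 apart but did not tell number 2 from number 3. Deviations from the group means correlated by 0.44 between TNctrl replicate 3 and TN replicate 2, and by 0.43 between the replicates 3. The fit with the number term called 4 of 9 members, 3 lower and 1 higher, against 27.1% of all genes, of which 15.3% were lower and 11.8% higher.

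*STING1*, the adaptor of the DNA sensor, had 6.74, 7.40, and 9.05 CPM in TNctrl and 30.6, 14.8, and 13.7 CPM in TN, with no overlap between the groups. Its log2 fold change was 1.35 ± 0.36 (adjusted p = 0.069), and with the number term it rose by 1.27 ± 0.31 (adjusted p = 0.019). Without TN replicate 1, its highest library, the change was 0.93 (adjusted p = 0.029), and in the other 5 fits without a library it was not called (adjusted p of 0.086 to 0.197). All TN libraries lay above all DMSO libraries in 15.9% of the genes tested and below in 16.8%.

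The endosomal receptor gene *TLR3* measured 2.08, 17.2, and 19.3 CPM in TNctrl and 0.527, 5.90, and 6.35 CPM in TN. The groups overlapped because the libraries numbered 1 were low in both, and the log2 fold change was -1.58 ± 0.94 (adjusted p = 0.36). Within a number the TN library was at 25.3%, 34.3%, and 32.9% of its DMSO library, and with the number term *TLR3* fell by 1.63 ± 0.24 on the log2 scale (adjusted p = 0.0023). *EIF2AK2* measured 24.9, 179, and 197 CPM in TNctrl and 13.5, 92.6, and 87.5 CPM in TN, with a log2 fold change of -1.05 ± 0.86 (adjusted p = 0.51). Here, the TN library was at 54.1%, 51.7%, and 44.4% of the DMSO library of its number, and with the number term the gene fell by 1.01 ± 0.15 (adjusted p = 0.0024). In both genes the TN library lay below the DMSO library of its number for all 3 numbers.

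For the cytosolic helicases, the TN library numbered 1 did not share the lower value. The libraries numbered 1 held few of their counts. In TNctrl and TN these were 59 and 41 for *IFIH1*, 19 and 21 for *DDX58*, and 29 and 16 for *DHX58*. *TLR3* had 38 and 5 counts there and *EIF2AK2* 455 and 128. Whether the helicases differed from *TLR3* and *EIF2AK2* in this was not tested. *IFIH1* measured 3.23, 113, and 116 CPM in TNctrl and 4.32, 44.7, and 43.3 CPM in TN, which is 134%, 39.7%, and 37.2% of the DMSO library of the same number. Its log2 fold change was -1.33 ± 1.18 (adjusted p = 0.54), and -0.98 ± 0.31 (adjusted p = 0.052) with the number term. *DDX58* measured 1.04, 35.1, and 40.5 CPM in TNctrl and 2.21, 12.1, and 13.0 CPM in TN, so that the TN library differed from the DMSO library of its number by 0.99, -1.53, and -1.63 in log2 CPM. Its log2 fold changes were -1.48 ± 1.10 (adjusted p = 0.46) and -1.11 ± 0.42 (adjusted p = 0.086) with the number term. *DHX58* measured 1.59, 15.1, and 10.2 CPM in TNctrl and 1.69, 2.95, and 3.35 CPM in TN. Its log2 fold change was -1.74 ± 0.73 (adjusted p = 0.20), it fell by 1.47 ± 0.44 with the number term (adjusted p = 0.040), and without TNctrl replicate 1 the change was -2.21 (adjusted p = 0.046). None of the other 5 fits without a library called it, and without TNctrl replicate 2 the change was -1.09 (adjusted p = 0.53).

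*ADAR*, *TRIM25*, and *MAVS* had the log2 fold changes nearest to 0 after TN. *ADAR* measured 282, 493, and 499 CPM in TNctrl and 320, 360, and 353 CPM in TN (-0.30 ± 0.26, adjusted p = 0.53, and -0.26 with the number term). *TRIM25* measured 95.4, 162, and 158 CPM in TNctrl and 182, 171, and 157 CPM in TN (0.29 ± 0.25, adjusted p = 0.53, and 0.33 with the number term), with the 1 low value in TNctrl replicate 1. *MAVS* measured 85.9, 63.7, and 63.4 CPM in TNctrl and 106, 64.5, and 70.9 CPM in TN (0.18 ± 0.26, adjusted p = 0.73, and 0.16 with the number term), and its value turned to -0.028 without TN replicate 1.

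**Figure D3:**
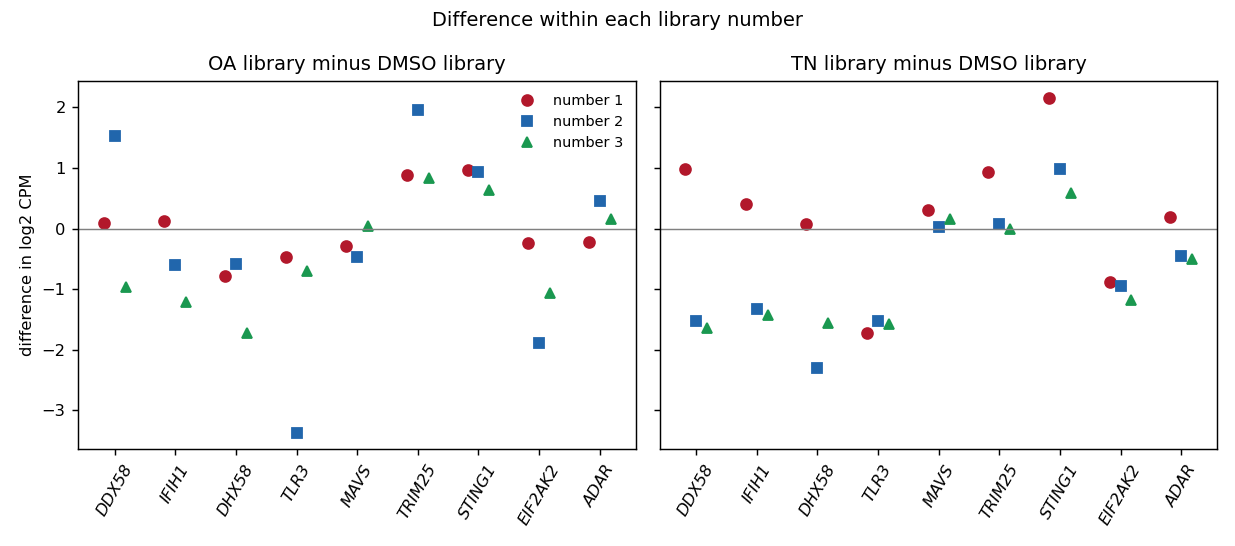
Treated library minus the DMSO library of the same number (y axis, difference in log2 CPM) for each transcript, OA on the left and TN on the right. For TN, *TLR3* and *EIF2AK2* are below 0 at all 3 numbers, while *DDX58* and *IFIH1* are at 0.99 and 0.40 at number 1 and between -1.33 and -1.63 at numbers 2 and 3.

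When the libraries numbered 2 and 3 were fitted alone, 2 TN against 2 TNctrl (a fit added after seeing the data), 7 of the 9 members passed, against 42.8% of 14639 genes. The lower ones were *DDX58* (-1.52 ± 0.15), *IFIH1* (-1.31 ± 0.09), *DHX58* (-1.94 ± 0.27), *TLR3* (-1.50 ± 0.20), *EIF2AK2* (-0.99 ± 0.08), and *ADAR* (-0.41 ± 0.07), that is, 6 of 9 against 22.6% of all genes that were lower, and *STING1* was the 1 that was higher (0.87 ± 0.21). *MAVS* (0.16 ± 0.10) and *TRIM25* (0.10 ± 0.08) did not pass. These 4 libraries lay closer together than others of a group, with the lowest chi-square values per gene of all replicate pairs (7.34 in TNctrl and 6.25 in TN), so the spread that the test used was small.

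The change after OA was then set against the change after TN in 1 contrast over all 12 libraries. It called 0 of the 9 members and 0 of 15429 genes with edgeR, of which 348 had an unadjusted p under 0.05, and DESeq2 called 2 genes (0.0130%), neither a member. *TRIM25* had the largest difference relative to its error, 0.91 ± 0.36 (adjusted p = 1.0). *STING1* was higher by 0.85 after OA and by 1.35 after TN, and the difference was -0.58 ± 0.54 (adjusted p = 1.0). For *DDX58* the difference was 1.55 ± 1.38, and for *IFIH1* 0.95 ± 1.55, so that an opposite response to the stressors was not shown for any member.

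The larger difference in the TN series was between the libraries numbered 2 and 3 and those numbered 1. It is given as a description with no test, since the split was chosen with the values known. In TNctrl, *DDX58* was at a mean of 37.8 CPM in the libraries numbered 2 and 3 and at 1.04 CPM in number 1, which is 36.3-fold. *IFIH1* was 35.4-fold, *TLR3* 8.77-fold, *DHX58* 7.97-fold, and *EIF2AK2* 7.55-fold higher in this way, while *ADAR* was 1.76-fold, *TRIM25* 1.68-fold, and *STING1* 1.22-fold higher and *MAVS* was at 0.740-fold. In the TN group, the same folds were 5.66 for *DDX58*, 10.2 for *IFIH1*, 11.6 for *TLR3* (over 5 counts in number 1), 6.68 for *EIF2AK2*, 1.87 for *DHX58*, 1.11 for *ADAR*, 0.899 for *TRIM25*, 0.637 for *MAVS*, and 0.466 for *STING1*. The receptors and *EIF2AK2* thus split by number in treated and untreated cells alike, and each of these folds but that of *TLR3* was smaller in the TN group.

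Over both groups, the difference in log2 CPM was 4.19 for *IFIH1*, the 20th highest of the 14432 genes tested, 3.71 for *DDX58* (30th), 3.13 for *TLR3* (44th), 2.82 for *EIF2AK2* (71st), and 1.85 for *DHX58* (453rd). For 6 of 9 members, all libraries numbered 2 and 3 lay above both numbered 1, against 20.7% of all genes, and 5 of 9 were at least 2-fold higher, against 14.3%. The median over the 9 members was 1.85, beside -0.08 over all genes. *MAVS* lay below instead (-0.54), as did 18.8% of all genes, but with *ACTB* scaling, which moved the median of all genes to 0.39, its groups overlapped (-0.05). *STING1* (-0.41) and *TRIM25* (0.30) overlapped between the numbers over both groups together, and their directions differed between the groups. *STING1* differed by 0.28 in the DMSO libraries alone, where numbers 2 and 3 lay above, and by -1.09 in the treated libraries alone, where they lay below. *TRIM25* differed by 0.75 and -0.15 in the same way. Without TN replicate 1 numbers 2 and 3 lay above for both (0.67 for *STING1* and 0.76 for *TRIM25*), and without TNctrl replicate 1 they lay below (-1.49 and -0.17). *TRIM25* (0.54) also lay above when scaled to total counts.

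In the OA series, 4 members separated by number the other way. *TLR3* (-1.98), *IFIH1* (-1.69), *EIF2AK2* (-1.61), and *DDX58* (-0.78) of the libraries numbered 2 and 3 lay below both libraries numbered 1, as did 14.1% of the 14681 genes, and *ADAR* (0.36) lay above, as did 11.3%. With *ACTB* scaling *DDX58* overlapped, and with *ACTB* or total counts *ADAR* did. The other members overlapped, and the median over the 9 was -0.27, beside 0.07 over all genes. This median rested on single libraries, as it was 0.14 without OA replicate 3, -0.66 without OA replicate 1, -0.49 without OActrl replicate 2, and -0.43 without OActrl replicate 3. What replicate numbers stand for is not given beyond biological replicates, so culture, day, and library preparation cannot be told apart here.

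**Figure D4:**
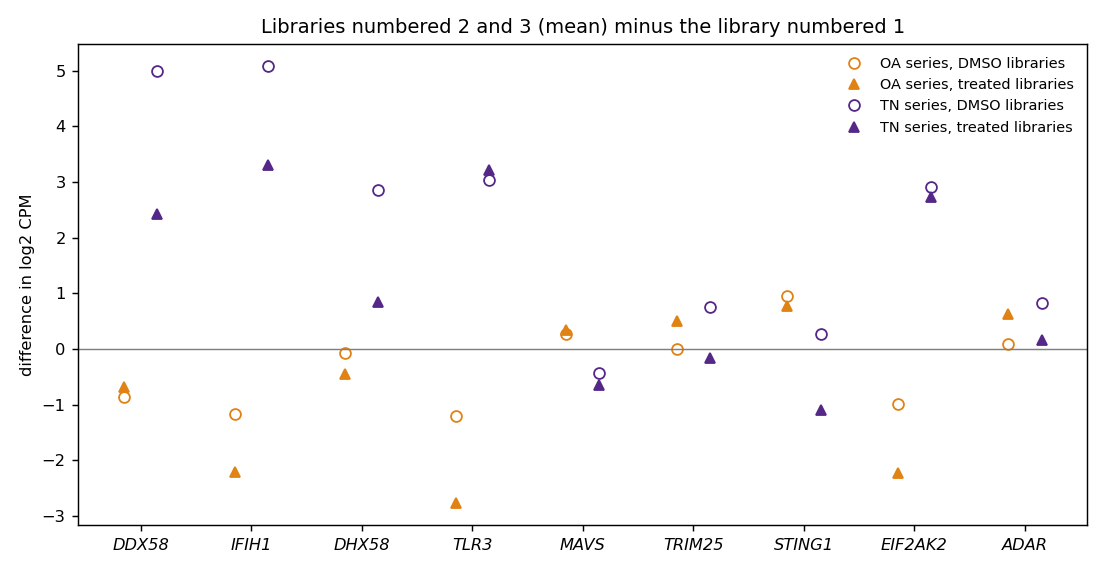
Mean log2 CPM of the libraries numbered 2 and 3 minus that of the library numbered 1 (y axis) for each transcript, separately in the DMSO (open circles) and treated (filled triangles) libraries of each series. In the TN series, *DDX58*, *IFIH1*, *TLR3*, and *EIF2AK2* are above 2 in both groups, whereas in the OA series they are below 0.

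The IFN genes were next set beside the receptors, because they lie downstream of MAVS and upstream of ISGF3. *IFNB1*, which encodes IFN-β, had 0, 193, and 150 counts in TNctrl replicates 1, 2, and 3 and 0, 20, and 26 counts in TN. *IFNL2* had 0, 375, and 286 counts in TNctrl and 0, 30, and 46 in TN, and *IFNL3*, another type III IFN gene, 0, 572, and 403 in TNctrl and 0, 75, and 62 in TN. All 3 genes thus had counts only in the libraries numbered 2 and 3 of the TN series, apart from 2 counts of *IFNB1* in OA replicate 2 and 2 of *IFNL2* in OActrl replicate 3. They are given as counts with no test, since they passed the filter through the libraries numbered 2 and 3. *IFNL1*, a further IFN gene of the list, did not pass the filter in the OA series either and is given no fold. In the TN series its mean log2 CPM was 2.79 in the libraries numbered 2 and 3 and -1.66 in those numbered 1. The latter lay little above the value without counts (-2.76), so *IFNL1* had some counts in number 1, but few.

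The IFN-stimulated genes (ISGs) outside the members followed the same split. Of a list of 31 ISGs, 28 passed the filter in the TN series, some of them through the libraries numbered 2 and 3 alone, so they are described over the 23 that passed it in the OA series (a choice made after seeing the data). All of these 23 were at least 2-fold higher in the TN-series libraries numbered 2 and 3, with no overlap and a median difference of 4.04 in log2 CPM, beside 13.8% of all genes that passed in the OA series and a median of -0.10. Among the 28 the difference was 6.98 for *IFI27*, while 4 genes, among them *RSAD2*, had at most 3 counts in either library numbered 1 and are given no fold. *IFI44* had 9, 1149, and 1168 counts in TNctrl and 0, 202, and 253 in TN, and *RSAD2*, which encodes viperin, 0, 765, and 618 in TNctrl and 0, 68, and 85 in TN. *IFI27* had 25, 3377, and 2814 counts in TNctrl and 11, 1825, and 1731 in TN. In the OA series 12 of the 23 ISGs tested lay below in the libraries numbered 2 and 3, with a median of -0.83, beside 14.1% of all genes.

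Without the number term, none of the ISGs passed the edgeR test after OA (0 of 23, with a median log2 fold change of -0.02) or after TN (0 of the same 23). Over all 28 tested after TN the median was -1.47, though some of them passed the filter through the libraries numbered 2 and 3 alone. At an unadjusted p under 0.05 there were 4 ISGs after OA and, among all 28 tested, 2 after TN. DESeq2 called 4 after OA (*OASL* and *IFI35* higher, *CMPK2* and *OAS3* lower) and 1 after TN (*USP18*, lower). Of all genes, it called 13.1% and 15.0%. The lowest p after OA were those of *OAS3* (-1.46 ± 0.34, adjusted p = 0.051), *OASL* (1.47 ± 0.35, adjusted p = 0.056), and *CMPK2* (-2.18 ± 0.58, adjusted p = 0.072). *OAS3* and *OASL* encode relatives of the 2-5A system that acts on dsRNA, and their values had opposite signs. After TN they were *USP18*, a negative regulator of the IFN receptor (-2.20 ± 0.79, adjusted p = 0.14), *CMPK2* (-3.22 ± 1.37, adjusted p = 0.20), and *OAS3* (-1.74 ± 0.85, adjusted p = 0.26). With the number term, 15 of the 23 ISGs that passed the filter in the OA series fell after TN and none rose, against 15.6% of all genes that passed there and were lower. Among them, *CMPK2* fell by 3.22 ± 0.37 (adjusted p = 8.0e-04) and *OAS3* fell by 1.61 ± 0.19 (adjusted p = 8.7e-04).

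**Figure D5:**
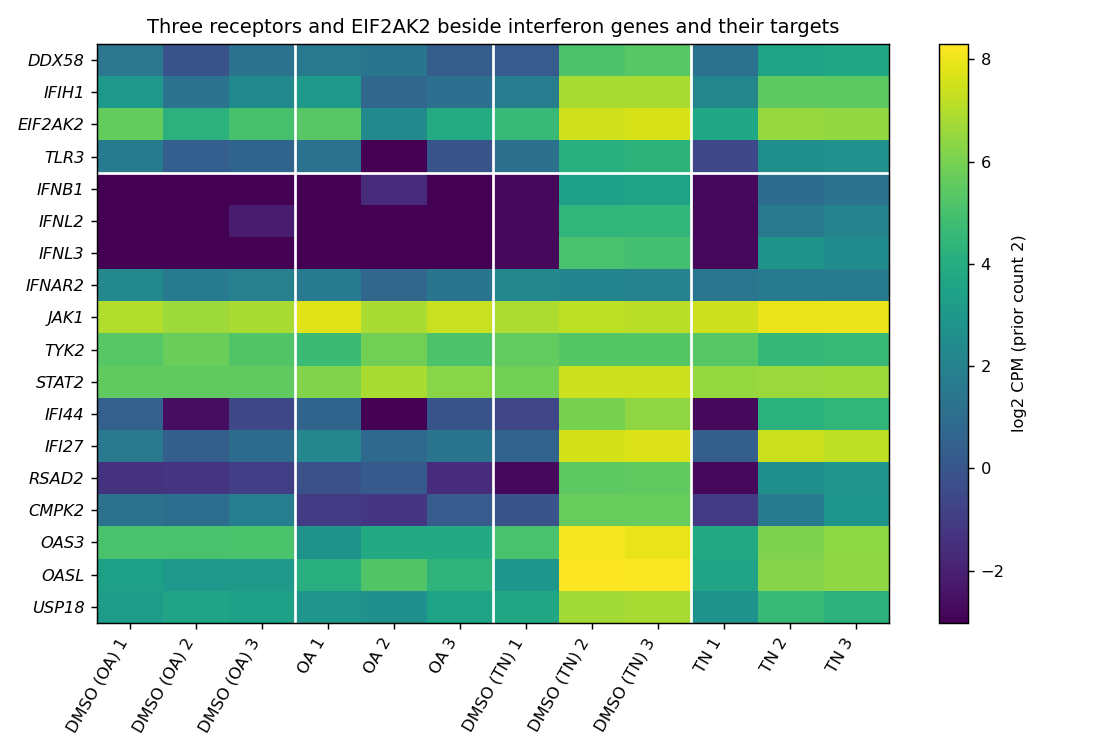
Level (color, log2 CPM with a prior count of 2) of 4 members (top rows), of IFN genes and of genes of the IFN response (lower rows) in each library (columns). In the TN series *IFNB1*, *IFNL2*, and *IFNL3* are at the floor of the scale in both libraries numbered 1 and above it in those numbered 2 and 3, in the same libraries in which the members are high.

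The differences were smaller for genes of the IFN receptor and its kinases. Of the 16 genes of the list of IFNs, receptors, and ISGF3, 12 were tested in the TN series. Of the chains of the type I IFN receptor, *IFNAR1* differed by 1.06 and *IFNAR2* by 0.03. The kinase genes *JAK1* and *TYK2* differed by 0.37 and -0.54, and *STAT2*, a part of ISGF3, by 0.84. No gene of this list passed the edgeR test after OA or TN without the number term, while DESeq2 called *STAT2* after OA and *JAK1* after TN, and 1 gene in each had an unadjusted p under 0.05. The lowest adjusted p were 0.078 for *STAT2* after OA (0.93 ± 0.26) and 0.096 for *JAK1* after TN (0.70 ± 0.22). With the number term *JAK1* rose after TN by 0.69 ± 0.14 (adjusted p = 0.0090) and *TYK2* fell by 0.57 ± 0.17 (adjusted p = 0.041).

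Downstream of MAVS, the relay of TRAFs, kinases, and transcription factors held 22 tested genes. After OA edgeR called 1 of these 22, against 4.48% of all genes. It was *TRAF2*, an adaptor of MAVS and TNF receptors, which fell by 1.27 ± 0.28 (adjusted p = 0.047) and was not called with *ACTB* scaling. After TN edgeR called none without the number term, against 6.99% of all genes, and *TRAF2* (-1.04 ± 0.28) had an adjusted p of 0.069. DESeq2 called 1, *TRAF2*, against 15.0% of all genes. With the term *TRAF2* fell by 1.04 ± 0.17 (adjusted p = 0.0034) and *TRADD* rose by 0.69 ± 0.17 (adjusted p = 0.020), among 4 genes lower and 1 higher of 22, in a fit that called 15.3% of all genes lower and 11.8% higher. Of the 22 regulators of RIG-I, MDA5, and MAVS, none was called after OA or TN without the term by edgeR or DESeq2, with 3 and 1 at an unadjusted p under 0.05, and 4 fell and 1 rose after TN with it, among them *PPP1CC*, a phosphatase catalytic subunit (-0.83 ± 0.16, adjusted p = 0.0069).

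The other proteins that bind dsRNA included calls after both stressors. *NLRP1*, an inflammasome sensor reported to bind long dsRNA, rose after both stressors. It measured 1.84, 2.57, and 2.44 CPM in OActrl and 9.59, 29.3, and 10.7 CPM in OA, a log2 fold change of 2.85 ± 0.50 (adjusted p = 0.027). In the TN series *NLRP1* had 1.42, 2.79, and 2.82 CPM under DMSO and 8.85, 9.31, and 11.7 CPM under TN (2.09 ± 0.34, adjusted p = 0.015), with no overlap in either series. The helicase gene *DHX9* fell after TN by 1.00 ± 0.18 (adjusted p = 0.021), from 729, 605, and 641 CPM to 347, 328, and 316 CPM. With *ACTB* scaling *DHX9* was not called. After OA its value was -0.93 ± 0.26 (adjusted p = 0.079), and *DHX15* had -1.26 ± 0.32 (adjusted p = 0.063) after OA and -1.06 ± 0.26 (adjusted p = 0.051) after TN. These made 1 of 20 tested genes after OA and 2 of 20 after TN with edgeR, against 4.48% and 6.99% of all genes. DESeq2 called 3 and 5, against 13.1% and 15.0%. With the number term 12 of the 20 fell and 1 rose after TN, against 15.3% of all genes lower and 11.8% higher.

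PKR is 1 of 4 kinases of eIF2α, and genes around it were called in comparisons without the number term, in which *EIF2AK2* was not. *PPP1R15A*, which encodes the stress-induced subunit of the eIF2α phosphatase, rose after OA by 3.54 ± 0.76 (adjusted p = 0.043), from 20.2, 26.0, and 20.5 CPM to 87.0, 595, and 93.6 CPM. Without OA replicate 2 the change was 2.01 (adjusted p = 0.0075). *EIF2AK3* (PERK), the kinase of the ER, rose after TN by 1.24 ± 0.23 (adjusted p = 0.024), from 30.3, 32.3, and 35.2 CPM to 57.4, 90.7, and 82.9 CPM. With total counts it was not called. After OA *EIF2AK3* had 0.97 ± 0.23 (adjusted p = 0.053). Each was the only edgeR call among 7 tested genes of this list in its comparison without the number term. Of all genes, edgeR called 4.48% after OA and 6.99% after TN. DESeq2 called 3 after OA (*EIF2AK3* and *PPP1R15A* higher, *EIF2S1* lower) and 2 after TN (*EIF2AK3* and *DNAJC3*, higher). Of all genes, it called 13.1% and 15.0%. With the term, *DNAJC3*, which encodes an inhibitor of eIF2α kinases, also rose after TN (1.90 ± 0.22, adjusted p = 8.9e-04), and *EIF2S1*, which encodes eIF2α itself, fell by 0.99 ± 0.19 (adjusted p = 0.0069).

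For the endosomal receptors, whose list held 7 tested genes beside *TLR3*, edgeR called 2 after TN, against 6.99% of all genes. DESeq2 called 3, against 15.0%. *HSP90B1*, the ER chaperone of the Toll-like receptors, rose by 2.07 ± 0.47 (adjusted p = 0.042), and *MYD88*, the adaptor of most of these receptors but not of TLR3, fell by 1.53 ± 0.28 (adjusted p = 0.021). Neither was called with *ACTB* scaling, and *HSP90B1* was not called with total counts. *MYD88* measured 8.11, 8.71, and 10.7 CPM in TNctrl and 2.53, 3.69, and 3.26 CPM in TN. With the number term *CNPY3*, a co-chaperone of these receptors, rose as well (0.90 ± 0.16, adjusted p = 0.0060). None of this list was called after OA. Around cGAS and STING, none of the 15 tested genes of cytosolic DNA sensing was called after OA and none of 14 after TN, where *POLR3B* (-0.76 ± 0.21), *ENPP1* (-0.91 ± 0.25), and *STIM1* (0.83 ± 0.25) had the lowest adjusted p (0.071, 0.071, and 0.090). DESeq2 called 1 after OA and 3 after TN, against 13.1% and 15.0% of all genes, and 4 and 6 had an unadjusted p under 0.05. With the number term 7 of the 14 fell and 1 rose after TN, against 15.3% of all genes lower and 11.8% higher. The genes of mitochondrial RNA turnover and release had no call of 14 in either comparison with edgeR (2 and 4 at an unadjusted p under 0.05, and 1 and 2 called by DESeq2, which called 13.1% and 15.0% of all genes). With the number term 5 of the 14 fell after TN, against the same 15.3%, among them *VDAC1* (-0.72 ± 0.13, adjusted p = 0.0057). Over the 9 pathway lists, edgeR without the number term called 3 genes after OA and 5 after TN. None was called when any 1 of the OActrl replicates or OA replicate 3 was left out, nor without replicate 2 or 3 of TNctrl or TN. *TRAF2* was not called without OA replicate 1 either, and of the 5 after TN *NLRP1* alone was called without TNctrl replicate 1.

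The members also differed in which genes they resembled over the 12 libraries, as Pearson's r of log2 CPM among 13657 genes. This is a description, as the libraries share treatments, numbers, and depth. *DDX58* was most like *IFIT2* (0.98), *IFIT3* (0.97), *EPSTI1* (0.97), *IFIH1* (0.96), and *PPM1K* (0.96). *IFIH1* was most like *PARP9* (0.99), *IFIT1* (0.99), *DDX60* (0.98), *IFIT3* (0.98), and *SAMD9* (0.98). *EIF2AK2* was most like *TLR3* (0.99), *HERC5* (0.99), *TENT5A* (0.98), *IFIT5* (0.98), and *B2M* (0.98). *MAVS* shared none of these and was most like a gene named *ABC12-46663800M24.2* (0.96), *NME3* (0.94), *DCTN1* (0.94), *ERCC2* (0.94), and *PPP2R1A* (0.94). Between members, r was 0.91 for *IFIH1* and *TLR3*, -0.86 for *DDX58* and *MAVS*, and 0.63 for *TRIM25* and *STING1*, and the last pair stood near 0 or below with *IFIH1* (-0.00032 and -0.20).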

How the data were processed

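RNA-seq libraries of HCT116 cells were analysed for OA and TN, each with 3 treated and 3 DMSO-treated replicates. According to the paper, the authors mapped reads to hg38 with STAR, which also counted them per Gencode gene. The counts were deposited by the authors as raw whole numbers. The authors' own result tables from DESeq2, with fold changes and p-values, were not used. The unit analysed is therefore the count, and CPM was computed from it with TMM factors per series. No per-sample column was left without a library.

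The R package edgeR (version 4.0.16, under R 4.3.3) tested each gene that passed filterByExpr by quasi-likelihood, two-sided, once for OA and once for TN, with no replicate term. Adjusted p-values follow Benjamini and Hochberg and cover every gene tested. SE was obtained from the log2 fold change and its F statistic. The contrast of OA and TN used all 12 libraries. P-values measure the spread between the labelled biological replicates. Libraries held 9884124 to 24983573 counts, and low genes such as *DHX58* and *TLR3* are limited by counting error. A floor of 3 counts was used. No replicate pair agreed within sampling noise, as chi-square per gene was at least 6.25.

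Same-numbered TN and TNctrl libraries deviated together from their group means (r = 0.64, 0.41, and 0.43 across 14432 genes), so the numbers were taken to pair them, from the shared numbers in the labels. Libraries numbered 2 and 3 also deviated together (0.38 for TNctrl replicate 2 with TN replicate 3, and 0.44 for TNctrl replicate 3 with TN replicate 2). The correlations thus set number 1 apart and did not tell number 2 from number 3.

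Alternatives were DESeq2 1.42.0, its size factors, total counts, *ACTB* scaling, other filters, 1 fit of 12 libraries, a replicate block, and each library left out. GC offsets (a smooth curve with a span of 0.3 on genes with a mean count of at least 20) and fits of numbers 2 and 3 alone were added after the data were seen. The scripts were tested on simulated data. Members and the 9 pathway lists were chosen with earlier results of these data known. Named were all members and *ACTB*, and of each list at most 3 genes with the lowest p per comparison. For ISGs and IFN genes, the 3 with the largest difference by number and *IFNL1* were also named. The 5 genes most like each of 4 members were named among those with a mean of at least 1 CPM. Positions are of GENCODE on hg38, a later version than the authors'.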

Additional observations from a re-analysis of the deposited data

Results flagged for a closer look

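*DDX58*, *IFIH1*, *EIF2AK2*, and *TLR3* are listed because all libraries numbered 2 and 3 lay on 1 side of those numbered 1 in the TN series and on the other side in the OA series. The differences in log2 CPM were 3.71 in the TN series and -0.78 in the OA series for *DDX58*, and 4.19 and -1.69 for *IFIH1*. They were 2.82 and -1.61 for *EIF2AK2* and 3.13 and -1.98 for *TLR3*. The difference between the series was not tested, and the replicate numbers of the series need not refer to the same cultures. Groups of 3 libraries are too small for a search for outliers within a group.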

How the results depend on the processing

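For OA, 0 members were called, and 1 (*TRIM25*) under DESeq2, total counts, *ACTB* scaling, no filter, 1 fit of all 12 libraries, GC offsets, and GC offsets with the replicate block. Without single libraries the number was 0 to 1. With the replicate block, 3 members (*EIF2AK2*, *STING1*, and *TRIM25*) and 26.7% of all genes (3914 in place of 658) were called, but the OA libraries were taken to share only a number, because the rule asked for over 0.1 in every pair. Those numbered 1 and 2 correlated by 0.62 and 0.54, but those numbered 3 by 0.091, and OActrl replicate 3 correlated best with OA replicate 1 (0.15). The TN series met the rule, although TNctrl replicate 3 also correlated best with another number, TN replicate 2 (0.44, beside 0.43 with TN replicate 3). For TN, 0 members were called, 1 under DESeq2, *ACTB* scaling, at least 10 counts in every library, and GC offsets, 2 with no filter, 4 with the replicate block (3915 genes in place of 1009), 5 with GC offsets and the replicate block, 7 with numbers 2 and 3 alone, and 0 to 1 without single libraries. The contrast of OA and TN called 0 members throughout.

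Of the 9 pathway lists, 3 genes were called after OA, 14 with DESeq2, 5 with total counts or at least 10 counts in every library, 8 with *ACTB* scaling or 1 fit of 12 libraries, 10 with no filter, 42 with the replicate block, 17 with GC offsets, 35 with GC offsets and the replicate block, 0 with numbers 2 and 3 alone, and 0 to 8 without single libraries (0 without any 1 of the OActrl replicates or OA replicate 3). After TN there were 5, and 18 with DESeq2, 10 with total counts or 1 fit of 12 libraries, 21 with no filter, 67 with the replicate block, 27 with GC offsets, 78 with GC offsets and the replicate block, 97 with numbers 2 and 3 alone, and 0 to 22 without single libraries (22 without TN replicate 1, and 0 without replicate 2 or 3 of either group). The cause of these shifts was not tested.

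Among the changes after treatment, signs turned for values that did not pass the test. With total counts the OA change was -0.044 for *DDX58* and -0.089 for *ADAR*, and with *ACTB* scaling 0.042 for *IFIH1* and 0.24 for *MAVS*. Without single libraries, the OA change ranged from -0.14 to 0.52 for *DDX58*, -1.51 to 0.24 for *IFIH1*, -1.73 to -0.19 for *EIF2AK2*, -2.19 to -0.23 for *TLR3*, 0.42 to 1.22 for *STING1*, and -0.071 to 0.33 for *ADAR*, and the TN change from -2.0 to -0.93 for *DDX58*, -1.83 to -0.74 for *IFIH1*, -2.03 to -1.0 for *TLR3*, -1.49 to -0.50 for *EIF2AK2*, 0.096 to 0.42 for *TRIM25*, and -0.028 to 0.34 for *MAVS*. The difference of OA and TN changes for *EIF2AK2* was -0.085 with the replicate block and -0.83 to 0.77 without single libraries, and it ranged from -0.35 to 1.51 for *IFIH1* and from -0.76 to 1.25 for *TLR3*. The median difference by number in the TN series (1.85) was 2.08 with total counts, 2.31 with *ACTB* scaling, 2.85 in DMSO libraries alone, 0.84 in treated libraries alone, and 1.43 to 2.20 without single libraries. In the OA series the same median ranged from -0.66 to 0.14 without single libraries. Depth limits *DHX58* and *TLR3*, with 2 and 0 counts in their lowest libraries.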
